A study of Arabidopsis thaliana with 2 samples.

Results

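Copper transport and plastocyanin genes were followed in shoots of Arabidopsis thaliana seedlings by RNA sequencing. The set comprised 9 genes, taken by their TAIR identifiers, out of 18615 genes in the deposited table, and all 9 had a value. Each had an FPKM (fragment counts scaled for transcript length and library size) of 1 or more in both libraries. They were the copper transporter genes COPT1, COPT2 and COPT5, the copper chaperone gene CCH, the copper regulator gene SPL7, the plastid copper pump genes PAA1 and PAA2, and the plastocyanin genes PETE1 and PETE2. The compared groups were wild type of the Col-0 accession and the bts-1 mutant, each with 1 library from shoots of seedlings on 1/2 MS medium lacking sucrose. Seedling age, the lesion in bts-1 and the number of plants per library are not given in the sources used here. With 1 library per genotype there is no replicate check, no standard deviation and no p-value, and every difference compares 2 libraries. BTS encodes an E3 ubiquitin ligase that restrains the iron-deficiency response, and the series title names its relation to energy metabolism genes of the organelles as the question.

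Copper enters plant cells mainly through COPT family channels of the plasma membrane and is handed to target proteins by small chaperones. In leaves a large share of it goes to the chloroplast, where the P-type ATPase PAA1 moves copper across the envelope and PAA2 across the thylakoid membrane. In the thylakoid lumen copper is bound by plastocyanin, which carries electrons from the cytochrome b6f complex to photosystem I. When copper is scarce, the transcription factor SPL7 binds GTAC cores in promoters of uptake genes and of copper-saving microRNA genes, so that copper is spared for plastocyanin.

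Levels are deposited values, read as log2(FPKM + 1). The log2 ratio of a gene is its bts-1 value less its Col-0 value. The read depth is unknown, since the table holds no counts. BTS (AT3G18290), the gene mutated in bts-1, stood at 10.84 in Col-0 and 9.57 in bts-1, a log2 ratio of -1.27. On chromosome 3 deposited levels were lower where the gene that follows by identifier had longer exons. The slope was -0.56 on log2 scales, against -0.02 to 0.04 on the other chromosomes. This touches the level of every chromosome 3 gene, here BTS, COPT2, CCH, the leaf marker GAPA and the root marker PYK10. In the gene lists below it also touches COX17-1, HCC1, LAC7, SPL5, SPL12 and SPL15. Of these, COX17-1, HCC1 and LAC7 are outside the naming rule. With chromosome 3 values rescaled by these lengths, BTS stood at 6.63 in Col-0 and its log2 ratio was -1.25. All 8 leaf marker genes had values, with a summed FPKM of 25860.9 in Col-0 and 24611.2 in bts-1, or 21093.4 and 19940.8 with chromosome 3 rescaled. Of 10 root marker genes, 4 had values. PYK10 (AT3G09260) was at 10.06 in Col-0 and 10.19 in bts-1, or 9.65 and 9.78 rescaled. PHT1;1 was at 2.22 and 2.78, CASP1 at 0.91 and 1.33 and MYB36 at 0.92 and 0.88. For PHT1;1, 42.5% of exonic 50-base stretches occur elsewhere in the genome, so its reads cannot be assigned with certainty. The other 6 root markers, among them the root hair genes COBL9 and EXPA7, were not analysed here. The part of root tissue in the ratios was not tested. Fewer cells of a type and less RNA per cell cannot be told apart in such bulk samples.

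Of the 9 genes, COPT2 alone differed by at least 2-fold, and it was lower in bts-1. Of the 18510 genes that reached an FPKM of 1 in a library, 5.55% differed by that much, 3.63% in the lower direction and 1.92% in the higher one. The share was 5.52% over all genes of the table and 4.69% of those that reached an FPKM of 5. A count of 1 in 9 is close to this background. The median log2 ratio of the 9 genes was -0.01, beside 0.04 for all genes. The other 8 genes had log2 ratios between -0.19 and 0.45, with 4 of them positive and 4 negative, although those of COPT5 and PETE2 lay within 0.04 of 0 and changed sign with the scaling between libraries. At 1.5-fold, a size reached by 16.9% of all genes, COPT2 was again the 1 member past the threshold.

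**Figure D1:**
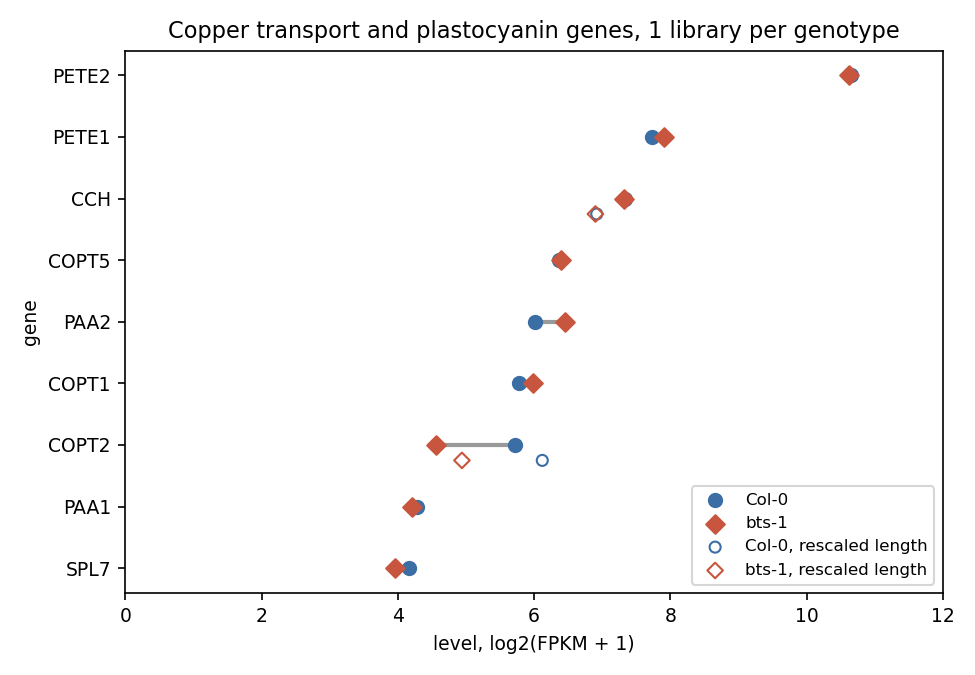
Levels of the 9 genes as log2(FPKM + 1) in the Col-0 library (circles) and the bts-1 library (diamonds), with open symbols for the chromosome 3 genes COPT2 and CCH after rescaling by exon length. COPT2 has the widest gap, from 5.72 to 4.56, and the symbols of PETE2, CCH and COPT5 nearly coincide.

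The order of the levels per transcript length was nearly the same in both libraries. In Col-0 it ran from PETE2 at 10.65 through PETE1 at 7.73, CCH at 7.34, COPT5 at 6.37, PAA2 at 6.01, COPT1 at 5.78, COPT2 at 5.72 and PAA1 at 4.28 to SPL7 at 4.16. In bts-1, PAA2 at 6.46 stood just above COPT5 at 6.40, and the other 7 genes kept their ranks. Neighbours in this order lay close together for COPT1 and COPT2 in Col-0 and for PAA1 and SPL7 in both libraries, and without replicates it cannot be said whether they differed. Rescaling of chromosome 3 placed COPT2 at 6.12 in Col-0, above PAA2 and COPT1, and at 4.94 in bts-1, and left its log2 ratio at -1.17.

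**Figure D2:**
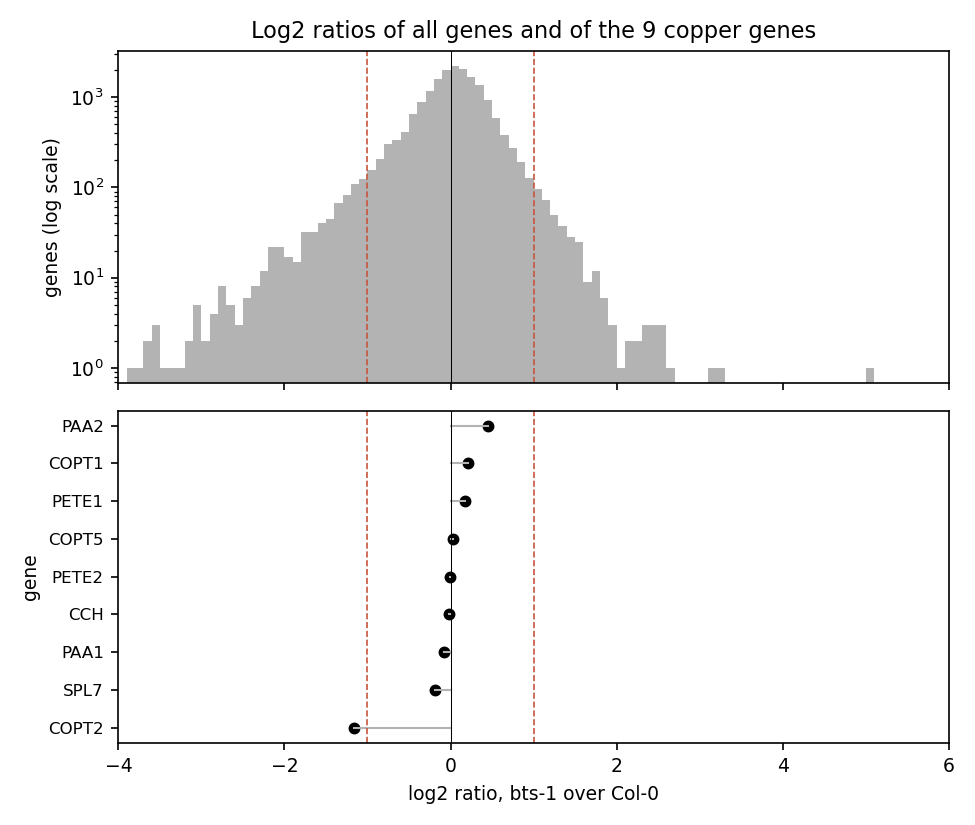
Log2 ratios of bts-1 over Col-0 for 18510 genes (upper panel, gene number on a log axis) and for the 9 copper genes (lower panel, one point per gene), with dashed lines at 2-fold. COPT2 at -1.16 lies past the lower line and the other 8 genes lie between -0.19 and 0.45.

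COPT2 (AT3G46900), a high-affinity copper transporter of the plasma membrane that is induced by copper shortage, stood at 5.72 in Col-0 and 4.56 in bts-1. This corresponds to an FPKM of 51.9 and 22.6. Its log2 ratio was -1.16, a value of 0.446-fold on the log2(FPKM + 1) scale, and 2.56% of all genes had a lower ratio. COPT1 (AT5G59030), the related plasma membrane transporter, stood at 5.78 and 5.99, a log2 ratio of 0.21. COPT6 (AT2G26975), a further plasma membrane member from outside the set, stood at 5.19 and 5.07, a log2 ratio of -0.11. The summed FPKM of COPT1, COPT2 and COPT6 was 141.3 in Col-0 and 117.9 in bts-1. COPT2 made up 36.7% of that sum in Col-0 and 19.2% in bts-1, while COPT1 made up 38.2% and 53.1%. With chromosome 3 rescaled, the COPT2 share was 43.3% and 23.8%. Of these 3 genes, COPT2 was the 1 past 2-fold. No stretch of 50 bases in the exons of any of the 9 genes occurred elsewhere in the TAIR10.1 genome, so copies of such a length do not blur these values. COPT6 is named outside the naming rule. Expression of COPT3 and COPT4, members of the transporter list, was not analysed here.

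COPT5 (AT5G20650), which sits in internal membranes and releases copper from the vacuole, stood at 6.37 in Col-0 and 6.40 in bts-1, a log2 ratio of 0.03. Its FPKM was 81.6 and 83.4. In the TAIR10.1 annotation 35.9% of its exon bases overlap the long non-coding RNA gene AT5G03185 and 9.19% overlap AT5G20640, both on the opposite strand. Whether counting used the strand is not stated for these data, so reads of these genes may not be separate.

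Upstream windows are shown because SPL7 acts through the core GTAC. The copper transporter genes differ in how many they hold when windows are counted from the first exon. Counted from the gene records, COPT1, COPT2 and COPT5 each held 0. The windows are the 300 bases before the first annotated exon in TAIR10.1, 5′ to 3′ on the strand of the gene, with each GTAC in capitals. The core reads the same on both strands and its matches do not overlap here. The coordinates are chr3:17268575-17268874 on the plus strand for COPT2, chr5:23834746-23835045 on the minus strand for COPT1, chr5:8323595-8323894 on the plus strand for YSL2 and chr5:4690722-4691021 on the plus strand for MIR398B. YSL2 and MIR398B, both linked to the copper-deficiency response, are shown for their own counts of the core, and the MIR398B record spans the microRNA stem-loop, so its window may be partly transcribed.
COPT2: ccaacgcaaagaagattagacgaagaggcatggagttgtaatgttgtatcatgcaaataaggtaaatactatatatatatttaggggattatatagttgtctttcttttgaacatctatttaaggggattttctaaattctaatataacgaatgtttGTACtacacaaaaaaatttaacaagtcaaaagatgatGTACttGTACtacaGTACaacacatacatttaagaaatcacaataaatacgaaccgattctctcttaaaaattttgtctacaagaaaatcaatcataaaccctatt
COPT1: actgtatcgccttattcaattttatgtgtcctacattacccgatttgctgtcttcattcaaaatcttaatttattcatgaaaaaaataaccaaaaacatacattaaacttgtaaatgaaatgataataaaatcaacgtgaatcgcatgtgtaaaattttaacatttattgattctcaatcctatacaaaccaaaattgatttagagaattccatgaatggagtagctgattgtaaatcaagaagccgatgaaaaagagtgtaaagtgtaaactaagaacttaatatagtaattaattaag
YSL2: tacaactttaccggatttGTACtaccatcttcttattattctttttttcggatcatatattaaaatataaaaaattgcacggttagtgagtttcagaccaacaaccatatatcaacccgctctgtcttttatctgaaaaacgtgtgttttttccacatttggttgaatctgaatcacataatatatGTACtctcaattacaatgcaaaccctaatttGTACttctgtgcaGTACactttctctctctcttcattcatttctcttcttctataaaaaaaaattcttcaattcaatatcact
MIR398B: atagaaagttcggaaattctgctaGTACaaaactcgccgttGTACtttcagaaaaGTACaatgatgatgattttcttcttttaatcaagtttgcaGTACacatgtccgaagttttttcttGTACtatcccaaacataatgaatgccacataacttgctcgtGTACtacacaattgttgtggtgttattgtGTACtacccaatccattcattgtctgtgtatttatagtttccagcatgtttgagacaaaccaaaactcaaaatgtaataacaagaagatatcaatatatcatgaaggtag

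The COPT2 window held 4 cores, at positions -143, -106, -100 and -92 from the first exon. A window with at least 4 occurred in 0.43% of 17925 coding genes of the table, and 40.2% held at least 1. The gene record of COPT2 starts 175 bases before its first exon, so all 4 cores lie inside the record. This stretch may be partly transcribed. A window counted from the start of the record, a choice added after the data were seen, held 0 cores. CCH held 1 core at -18 and PAA1 held 1 at -193. The windows of COPT1, COPT5, SPL7, PAA2, PETE1 and PETE2 held 0, which says only that the letters are not in these windows. YSL2 held 4 cores, MIR398B held 7, MIR398C held 5, FSD1 held 1 and COPT6 held 0. Over 76 genes with 4 or more cores, 3 lay at least 2-fold down (3.95%), COPT2 itself among them, and 0 at least 2-fold up. The median log2 ratio of the 76 genes was -0.06. Over 332 genes with 3 cores, 5.12% lay at least 2-fold down and 2.41% up, with a median of 0.05. With 2 cores (1446 genes) these shares were 3.53% and 1.73%, and with 1 core (5311 genes) 3.48% and 1.07%. The medians of these 2 groups were 0.05 and 0.03. Over 10665 genes with 0 cores the shares down and up were 3.42% and 1.42%, with a median of 0.04. Differences between these groups were not tested.

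**Figure D3:**
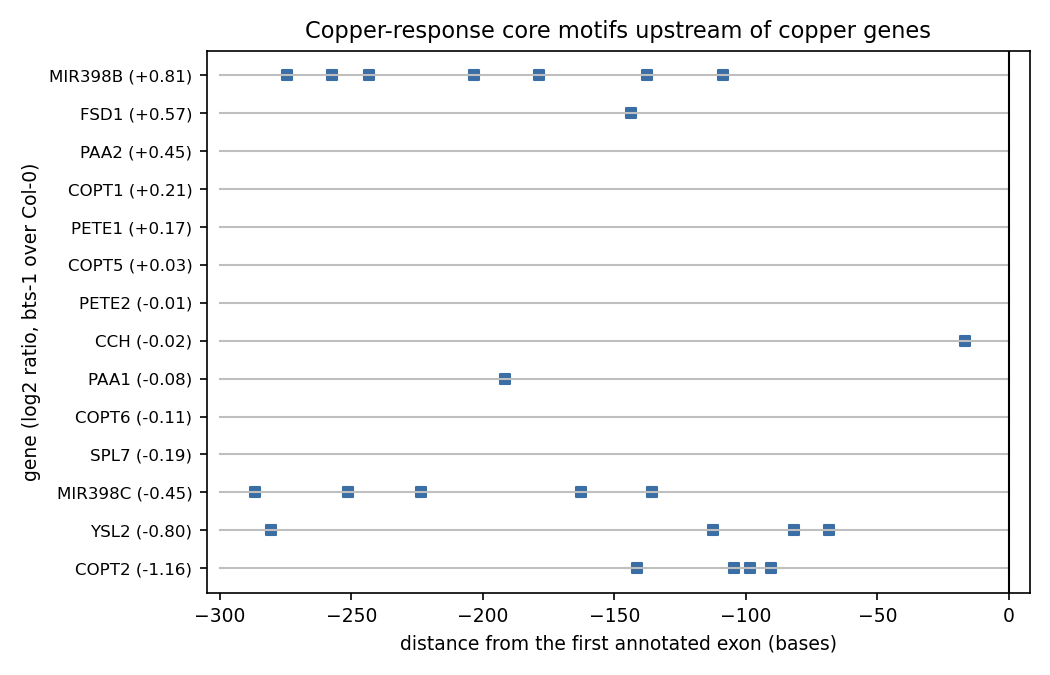
Positions of the copper-response core in the 300 bases before the first annotated exon (x axis, bases) for the 9 genes and 5 further copper-response genes with values, ordered by log2 ratio of bts-1 over Col-0 given in brackets. COPT2 and YSL2 at the bottom hold 4 cores each, and MIR398B at the top holds 7.

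SPL7 (AT5G18830), the regulator that binds these cores under copper shortage, stood at 4.16 in Col-0 and 3.96 in bts-1. Its log2 ratio was -0.19, and 59% of all genes had a ratio at least as far from 0. CCH (AT3G56240), a cytosolic chaperone that hands copper to membrane pumps, stood at 7.34 and 7.32, a log2 ratio of -0.02. After rescaling, CCH stood at 6.92 and 6.90. CCH is itself a gene induced by copper shortage, and it did not share the lower level of COPT2. ATX1 (AT1G66240), the close relative of CCH from outside the set, stood at 6.03 and 5.60, a log2 ratio of -0.43.

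The plastid copper pumps differed from each other in level. PAA1 (AT4G33520), the pump of the chloroplast envelope, stood at 4.28 in Col-0 and 4.20 in bts-1, a log2 ratio of -0.08. PAA2 (AT5G21930), the pump of the thylakoid membrane that loads the lumen, stood at 6.01 and 6.46. Its FPKM was 63.3 and 86.9 and its log2 ratio 0.45, the second in size among the 9 genes, although 25.3% of all genes had a ratio at least as far from 0. The FPKM of PAA2 over that of PAA1 was 3.44 in Col-0 and 5.0 in bts-1. In the annotation 4.67% of the PAA2 exon bases overlap AT5G21940 on the opposite strand. CLPC1 (AT5G50920), a chaperone of the Clp protease that degrades PAA2 protein when copper is ample, is named outside the naming rule and stood at 9.38 and 9.42.

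Plastocyanin transcripts were nearly level between the libraries. PETE2 (AT1G20340, listed as DRT112), which encodes the major plastocyanin, stood at 10.65 in Col-0 and 10.63 in bts-1, an FPKM of 1601.8 and 1586.4. This level exceeded that of 99.8% of genes in both libraries. PETE1 (AT1G76100), the minor isoform, stood at 7.73 and 7.90, an FPKM of 211.8 and 237.7. The log2 ratios were -0.01 for PETE2 and 0.17 for PETE1. The summed FPKM of the pair was 1813.6 in Col-0 and 1824.0 in bts-1, and PETE2 made up 88.3% and 87.0% of it.

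Nuclear genes listed as thylakoid partners of plastocyanin had a median log2 ratio of 0.13 over 9 genes, beside 0.04 for all genes. Of the 9 ratios, 8 were positive and 1 was negative. Past 2-fold were 0 of them, beside 5.55% of all genes. Over all genes 54.8% of ratios were positive. The list is wider than direct partners of plastocyanin. It holds the ferredoxin gene FD2 and the ferredoxin reductase genes FNR1 and FNR2, with log2 ratios of 0.40, 0.03 and 0.13. It also includes CLPC1, described above, which is no partner of plastocyanin. Without CLPC1 alone, a choice made after the data were seen, the median was 0.20 over 8 genes with 7 positive. PSAF (AT1G31330), the photosystem I subunit at which plastocyanin docks, stood at 10.63 in Col-0 and 10.98 in bts-1. PSAN (AT5G64040), another photosystem I subunit on the lumen side, was at 9.42 and 9.84 and FD2 (AT1G60950), the leaf ferredoxin, at 9.88 and 10.28. PETM (AT2G26500), a small subunit of the cytochrome b6f complex, was at 7.93 and 8.19. The Rieske protein gene PETC (AT4G03280), whose product passes electrons towards plastocyanin, was at 9.59 and 9.66, and CYTC6A (AT5G45040), a cytochrome c6-like lumen protein, had the 1 negative ratio, -0.18. PETC, CYTC6A, FNR1 and FNR2 are outside the naming rule.

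Other copper genes were set beside these in lists. Over all genes the median log2 ratio was 0.04 and 5.55% were past 2-fold. Among 8 further copper and metal transporter genes, all with an FPKM of 1 or more, 0 were past 2-fold and the median log2 ratio was -0.03. YSL2 (AT5G24380), a metal-nicotianamine transporter, stood at 4.27 in Col-0 and 3.47 in bts-1, a log2 ratio of -0.80. YSL3 (AT5G53550), of the same family, was at 3.83 and 4.25. RAN1 (AT5G44790), the copper pump that supplies ethylene receptors, was at 4.37 and 4.76, a log2 ratio of 0.39, and the zinc transporter gene ZIP4 (AT1G10970) was at 1.03 and 1.28.

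The chaperone list covers copper delivery to superoxide dismutase and to cytochrome c oxidase. It had 8 genes that reached an FPKM of 1 and a median log2 ratio of 0.02. HCC1 (AT3G08950), on chromosome 3, missed that limit at 0.99 in Col-0 and 0.87 in bts-1, but stood at 1.93 and 1.75 rescaled. Of the 8 genes that reached it as deposited, 12.5% were past 2-fold, beside 5.55% of all genes. COX19-1 (AT1G66590), a cytochrome c oxidase assembly factor, was the 1 gene past 2-fold, with an FPKM of 2.48 in Col-0 and 0.689 in bts-1 and a log2 ratio of -1.04. This level is low, and 72.1% of its exonic 50-base stretches occur elsewhere in the genome, so its reads cannot be assigned with certainty. CCS (AT1G12520), the chaperone of copper/zinc superoxide dismutase, stood at 4.80 and 5.28, a log2 ratio of 0.48. AT1G53030, annotated as a cytochrome c oxidase copper chaperone, had a log2 ratio of 0.29 and HCC2 (AT4G39740), of the SCO1 type, of 0.27.

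Among 21 genes of copper enzymes, blue copper proteins and copper-binding receptors, 1 lay at least 2-fold up and 1 at least 2-fold down. That is 9.52% of the list, beside 5.55% of all genes. The median log2 ratio was -0.08, beside 0.04 for all genes. AT5G21100, annotated as an L-ascorbate oxidase, a multicopper enzyme of the cell wall, stood at 6.31 in Col-0 and 5.07 in bts-1, a log2 ratio of -1.24. Its neighbour AT5G21105, with the same annotation and named after its value was seen, was at 5.05 and 5.33. ERS1 (AT2G40940), an ethylene receptor that binds copper, stood at 3.97 and 5.24, a log2 ratio of 1.27. Its relative ETR1 (AT1G66340), also named after its value was seen, was at 3.82 and 3.84. The uclacyanin gene UCC2 (AT2G44790) was at 3.19 and 4.16 and its relative UCC1 (AT2G32300) at 1.56 and 1.09. BCB (AT5G20230), a blue copper-binding protein linked to stress, was at 5.71 and 5.01, and the copper amine oxidase gene AO1 (AT4G14940) was at 2.15 and 1.72.

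Of 14 genes of the copper-deficiency response outside the 9, 5 had values, with 2 ratios positive and 3 negative. Their median log2 ratio was -0.11, beside 0.04 for all genes. YSL2, at -0.80, and COPT6, at -0.11, belong to these 5 and also to the transporter list. Of these 5, 0 were past 2-fold, beside 5.55% of all genes. FSD1 (AT4G25100), the iron superoxide dismutase that stands in for the copper enzymes when copper is scarce, was at 8.01 in Col-0 and 8.57 in bts-1. MIR398B (AT5G14545) was at 3.86 and 4.67 and MIR398C (AT5G14565) at 3.38 and 2.93, so the log2 ratios of these microRNA gene records were 0.81 and -0.45. The records are short, with 67 and 66 exonic stretches of 50 bases. With the depth unknown, few fragments may lie behind these values. Mature miR398 was not measured. Its textbook targets CSD1 (AT1G08830) and CSD2 (AT2G28190), the cytosolic and plastid copper/zinc superoxide dismutases, were at 5.98 and 6.37 and at 7.44 and 7.71, whereas CSD3 (AT5G18100), the peroxisomal form, was at 5.68 and 5.28. The 3 CSD genes are named after their values were seen. Expression of ZIP2, FRO4, FRO5, CITF1, MIR398A, MIR408, MIR397A, MIR397B and MIR857 was not analysed here, although their windows were searched. MIR408 and MIR397B held 4 cores each, ZIP2 and MIR397A 3 each and CITF1 held 1. FRO4, FRO5, MIR398A and MIR857 held 0.

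**Figure D4:**
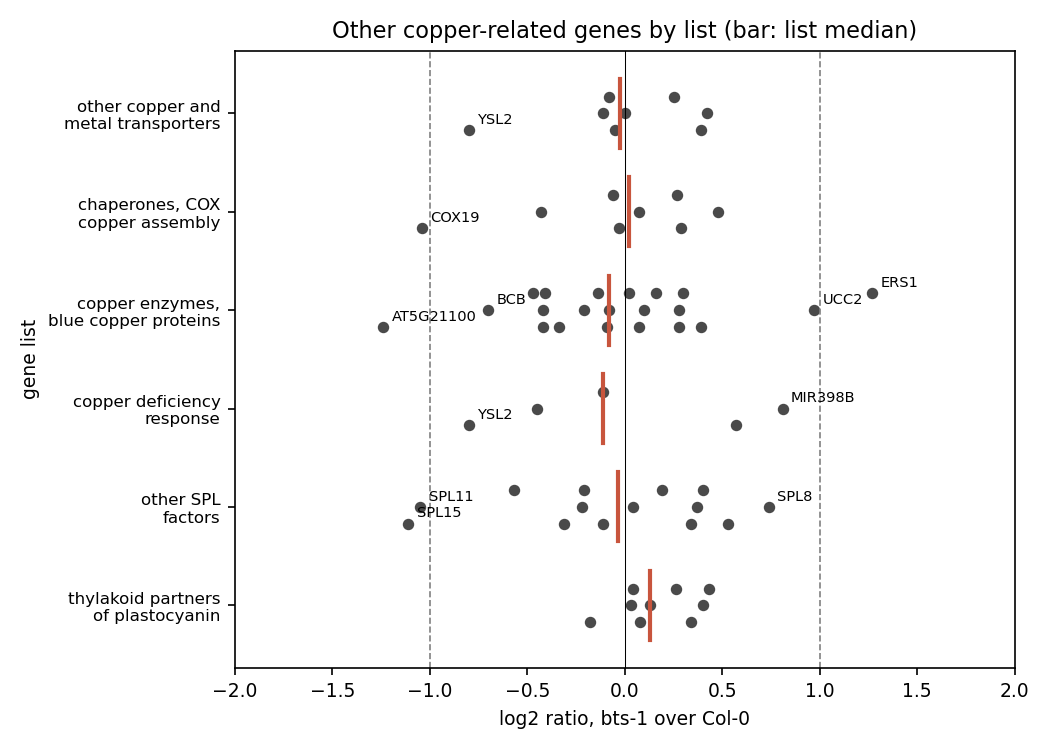
Log2 ratios of bts-1 over Col-0 (x axis) for the genes of 6 copper-related lists that reached an FPKM of 1 in a library, one point per gene, with the list median as a bar and dashed lines at 2-fold. The medians lie between -0.11 and 0.13, and genes with a ratio of about 0.7 or more in size are named.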

How the data were processed

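Total RNA of shoots was sequenced from 1 Col-0 and 1 bts-1 library. Both were made from DNase-treated RNA with a kit that keeps strand, per the labels' protocols. Tools named in the submitters' processing notes, without their order, are HTSeq 0.9.1, TopHat2 2.1.0, Bowtie, cutadapt 1.12 and CASAVA 1.8.2, with the build TAIR10. The deposited values are called normalized FPKM but lie on a log2 scale, and were read as log2(FPKM + 1). This scale is inferred from the values. Sorted, both columns agree within 0.001 at 98% of ranks, as after quantile normalization, a step no label records, so a ratio holds only relative to the rest of the table. 2 rows without symbol and description, 4.33% and 4.34% of the summed FPKM, were left out.

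The log2 ratio is the difference between the columns, and a gene was counted as apart at 2-fold. It understates differences of low genes. The members and lists were chosen with earlier results of these data known. Named were the members, BTS, and from each list the genes past 2-fold plus up to 4 with the largest ratios, with exceptions marked where they occur. For chromosome 3, FPKM was also rescaled by the exon length of the following gene over the gene's own, non-coding RNA loci skipped. Lengths and sequences come from RefSeq's TAIR10.1 genome and annotation; the table holds no coordinates. The arithmetic of ratios and calls was checked on deposited Col-0 levels multiplied by known folds without noise. This says nothing about how reliable a call is. Python 3.11.15, numpy 2.4.6 and pandas 2.3.3 were used.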

Additional observations from a re-analysis of the deposited data

How the results depend on the processing

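Of 152 values recomputed under other settings, 143 stayed within tolerance. The tolerance was 0.1 on the log2 scale, 1.5 times for a count and 1 percentage point for a share. Many of these values could hardly move, since centring shifted every ratio by 0.04 and nuclear scaling used a factor of 1.01. Rescaling of chromosome 3 left genes of other chromosomes as they were. A change of sign was looked for only in members past 2-fold, here COPT2, whose sign stayed. These counts therefore say little about how reliable a ratio is. COPT2 was the 1 member past 2-fold under all 5 other settings of pseudocount, scaling and exon length. Its log2 ratio ranged from -1.20 to -1.04, the latter with a pseudocount of 5. Scaling moves all nuclear ratios slightly and exon length rescales both libraries alike, so these settings could hardly change the call. None of the settings bears on variation between libraries. The log2 ratio of PAA2 ranged from 0.41 to 0.47, and that of CCH from -0.06 to 0.00. Weighting FPKM by exon length, as a proxy for reads, put PETE2 at 90.7% of the plastocyanin pair in Col-0 and 89.6% in bts-1. With a pseudocount of 5 the chaperone list and the SPL list each had 0 genes past 2-fold. With a minimum FPKM of 5 they had 0 and 1, and the SPL median was 0.19. The count of cores upstream of COPT2 went from 4 to 0 when the window was counted from the gene record, and those of the other 8 members did not change. Centring on the nuclear median shifted ratios by 0.04 and put COPT5 at -0.01. The share of all genes past 2-fold was 5.52% with no filter and 4.69% with a minimum FPKM of 5. No paired analysis was possible because each genotype has 1 library. The depth is unknown, and a difference between the libraries cannot be told apart from variation between plants or preparations.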

Other observations

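Genes of the SPL family other than SPL7 had a median log2 ratio of -0.04 over 14 genes, beside 0.04 for all genes. Most of them act in growth phase and flowering rather than in copper supply. Of the 14, 0 lay at least 2-fold up and 2 at least 2-fold down. That is 14.3% of the list past 2-fold, beside 5.55% of all genes. SPL15 (AT3G57920), which promotes flowering, stood at 2.49 in Col-0 and 1.38 in bts-1, and SPL11 (AT1G27360) at 3.08 and 2.02, log2 ratios of -1.11 and -1.05. SPL15, SPL5 and SPL12 lie on chromosome 3, and after rescaling by exon length their log2 ratios were -1.20, -0.37 and 0.40, against -0.57 for SPL5 and 0.40 for SPL12 as deposited. SPL8 (AT1G02065), which acts in anther development, stood at 1.37 and 2.11, SPL5 (AT3G15270) at 1.84 and 1.27 and SPL3 (AT2G33810) at 2.34 and 2.88, and SPL12 (AT3G60030) at 5.83 and 6.24. The members closest to SPL7 in level in Col-0, SPL14 (AT1G20980) and SPL2 (AT5G43270), picked once values were known, were at 0.34 and -0.21 in log2 ratio. SPL15 and SPL11, the genes past 2-fold, were both at or below a log2 level of 3.08 in either library.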
